A study of Mus musculus with 2 samples.

Results

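The promoter peaks of expressed genes made up 22244 of the 91223 peaks called in a SPARC-seq map of embryonic mouse brain, or 24.4% of the peaks. A peak was chosen by 2 criteria: it lay on chromosomes 1 to 19 within 1 kb of the transcription start site (TSS) interval that the deposited feature table gives for a gene, and that gene had 10 or more UMIs (unique molecular identifiers, each standing for 1 captured RNA molecule) over all spots. The UMI limit uses measured RNA, so the fact that these genes are expressed is a condition of the choice and not a result. The peaks held 8266024 of 16684727 peak counts, or 49.5% (95% interval 49.5 to 49.6%, counting error only).

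A promoter is the stretch of DNA around a transcription start where general transcription factors and RNA polymerase II assemble. At active genes the nucleosomes over it are displaced or remodelled, so that the transposase Tn5 can cut there, and each cut is one count in an accessibility assay. Promoters of genes that every cell uses usually lie in CpG islands and are open in most cell types, whereas promoters of tissue-specific genes and distal enhancers tend to be open only where the gene is used. CTCF, the protein mutated here, binds insulators and promoters and, together with cohesin, shapes chromatin loops.

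SPARC-seq reads RNA and accessible chromatin from the same barcoded spots of a tissue section. Both libraries were made from embryonic brain at E18.5, of the C57BL/6 background and homozygous for a Ctcf mutation, R567W, introduced by CRISPR/Cas9, so every spot carried the mutation. There was 1 RNA library and 1 accessibility library, with no wild-type sample and no replicate, so nothing below is a comparison of genotypes, no p-value is given, and all intervals cover counting error only. The RNA library held 8726497 UMIs and the accessibility library 52942843 fragments over 2500 barcodes, of which 1993 were in the count matrix and were shared by both assays; these had 1781 to 41970 peak counts each, with a median of 7540. A spot can hold several cells, so more open chromatin per cell and more cells of a type cannot be told apart. Although the tissue is labelled brain, Acta1 and Ttn, which encode skeletal muscle actin and the giant sarcomere protein titin, were measured at 563 and 568 CPM (counts scaled to a total of 1000000) even in the 1794 spots poorest in them.

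The following stretches of promoter peaks are shown because the comparison of spots below turns on them. They are parts of peaks that overlap no annotated exon, read from the GRCm38.p6 (mm10) reference 5′ to 3′ on the strand of the gene, and were picked after their values were seen. Capitals mark matches, on either strand, to any of 8 short motifs. The GC box, GGGCGG, is bound by Sp1 and its relatives. The CCAAT box is bound by the factor NF-Y. The ETS motif, CCGGAAG, is bound by the large family of ETS factors. The CRE, TGACGTCA, is bound by CREB and related factors. The TATA box, TATAAA, directs the general factor TFIID in a minority of promoters. The E-box searched, CAGCTG, is one form bound by helix-loop-helix factors such as myogenin. The MEF2 motif was taken as CTAAAAATA, and MEF2 acts in muscle and neurons. The YY1 motif was taken as AAGATGGCG. No motif in this set contains another. The first 6 promoters were called more accessible in spots rich in muscle RNA when all spots were compared. Within groups of spots that share a barcode segment, described below, only Cryab, Myog and Tnnc2 kept the call. Twist1 had a ratio of rates, muscle-rich over other spots, of 0.732 there, with an interval that held 1 (0.495 to 1.08). Six2 encodes a homeodomain factor of mesenchyme and kidney progenitors, Cryab the small heat-shock protein alpha-B crystallin, Mgp an inhibitor of calcification made by cartilage, Twist1 a mesenchymal transcription factor, Myog the muscle factor myogenin and Tnnc2 fast skeletal troponin C.
Six2 (chr17:85688430-85688589, minus strand): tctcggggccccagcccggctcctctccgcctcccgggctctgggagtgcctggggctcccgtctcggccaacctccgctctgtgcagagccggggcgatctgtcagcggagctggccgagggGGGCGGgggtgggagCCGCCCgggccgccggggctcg
Cryab (chr9:50752747-50752906, plus strand): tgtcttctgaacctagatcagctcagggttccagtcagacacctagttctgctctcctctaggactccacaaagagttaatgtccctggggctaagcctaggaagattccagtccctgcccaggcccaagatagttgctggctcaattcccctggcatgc
Mgp (chr6:136875869-136876028, minus strand): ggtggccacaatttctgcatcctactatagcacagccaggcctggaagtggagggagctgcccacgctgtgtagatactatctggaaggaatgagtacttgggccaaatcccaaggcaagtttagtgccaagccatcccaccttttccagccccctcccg
Twist1 (chr12:33957438-33957597, plus strand): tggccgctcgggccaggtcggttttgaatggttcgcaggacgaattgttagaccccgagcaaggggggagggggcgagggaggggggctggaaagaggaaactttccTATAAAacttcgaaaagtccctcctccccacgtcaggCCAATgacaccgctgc
Myog (chr1:134289729-134289888, plus strand): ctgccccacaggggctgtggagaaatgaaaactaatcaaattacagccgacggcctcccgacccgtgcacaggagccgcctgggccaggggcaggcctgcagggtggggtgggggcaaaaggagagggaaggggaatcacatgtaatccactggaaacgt
Tnnc2 (chr2:164779503-164779662, minus strand): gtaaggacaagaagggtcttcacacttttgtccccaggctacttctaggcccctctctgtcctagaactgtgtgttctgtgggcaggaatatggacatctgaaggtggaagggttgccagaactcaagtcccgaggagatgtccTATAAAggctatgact
The next 5 were called less accessible in the same spots when all spots were compared. Within those groups only Erc2 kept the call. Elavl3 had a ratio of 1.02 (0.355 to 2.90) there, so no direction can be given for it. Erc2 encodes a scaffold of the presynaptic active zone, Cacnb4 a calcium channel subunit, Tubb3 neuronal beta-tubulin, Snap25 a SNARE protein of synaptic vesicle fusion and Elavl3 a neuronal RNA-binding protein.
Erc2 (chr14:27623750-27623909, plus strand): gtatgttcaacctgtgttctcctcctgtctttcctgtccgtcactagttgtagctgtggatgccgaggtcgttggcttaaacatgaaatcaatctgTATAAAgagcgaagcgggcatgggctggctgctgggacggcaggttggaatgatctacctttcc
Cacnb4 (chr2:52558676-52558835, minus strand): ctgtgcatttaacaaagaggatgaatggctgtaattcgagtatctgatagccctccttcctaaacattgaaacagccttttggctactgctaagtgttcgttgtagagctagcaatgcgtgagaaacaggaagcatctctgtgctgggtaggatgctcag
Tubb3 (chr8:123411264-123411423, plus strand): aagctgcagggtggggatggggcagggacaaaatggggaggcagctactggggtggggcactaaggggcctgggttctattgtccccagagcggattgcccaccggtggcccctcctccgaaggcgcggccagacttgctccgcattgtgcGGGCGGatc
Snap25 (chr2:136713293-136713452, plus strand): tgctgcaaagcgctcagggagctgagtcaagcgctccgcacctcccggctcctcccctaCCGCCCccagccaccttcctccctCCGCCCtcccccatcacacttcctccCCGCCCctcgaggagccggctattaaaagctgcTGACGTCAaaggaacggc
Elavl3 (chr9:22052024-22052183, minus strand): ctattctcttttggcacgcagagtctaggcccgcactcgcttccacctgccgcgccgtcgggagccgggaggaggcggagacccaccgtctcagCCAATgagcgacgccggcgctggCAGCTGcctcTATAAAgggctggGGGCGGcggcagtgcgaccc
The promoters of Actb, which encodes cytoplasmic actin, and of Ctcf itself were called in neither direction.
Actb (chr5:142905938-142906097, minus strand): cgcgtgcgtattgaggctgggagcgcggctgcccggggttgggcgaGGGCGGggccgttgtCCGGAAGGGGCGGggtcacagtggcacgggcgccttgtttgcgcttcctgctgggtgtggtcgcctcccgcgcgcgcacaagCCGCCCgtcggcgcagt
Ctcf (chr8:105636408-105636567, plus strand): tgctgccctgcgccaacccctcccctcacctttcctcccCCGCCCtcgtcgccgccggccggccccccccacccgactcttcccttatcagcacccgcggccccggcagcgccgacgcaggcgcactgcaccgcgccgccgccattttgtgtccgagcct
Of these stretches, Actb held 23 CG pairs in 160 bases, Ctcf 20, and Six2 and Elavl3 17 each, against 1 in Tnnc2, 2 in Mgp and 0 in Cryab. The neuronal stretches of Cacnb4 and Erc2 held 3 and 6, so CpG-poor stretches were found among the promoters that were higher and those that were lower.

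The TSS interval of a gene in the feature table can span all of its alternative starts, and the peaks chosen fell into 2 unlike sets. In 15712 peaks, an annotated transcript start (GENCODE M21) of an expressed gene lay within 1 kb, and these are called start-site peaks below. The other 6532 lay only somewhere inside a long interval, and 96.2% of them were intronic. Start-site peaks held 44.7% of all peak counts with a median of 339 counts each (quartiles 188 and 594). Interval-only peaks held 4.89% with a median of 97 counts, next to a median of 94 counts for the 39492 peaks 10 to 100 kb from any TSS interval and 77 counts for the 10666 peaks over 100 kb away. Promoter peaks of genes under 10 UMIs had a median of 117 counts over 2211 peaks. Widths were nearly equal, with medians of 878, 873 and 871 bases for start-site, interval-only and low-UMI promoter peaks. By annotation, 44.4% of start-site peaks were centred in an exon, 25.7% in an intron and 29.9% outside genes.

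**Figure D1:**
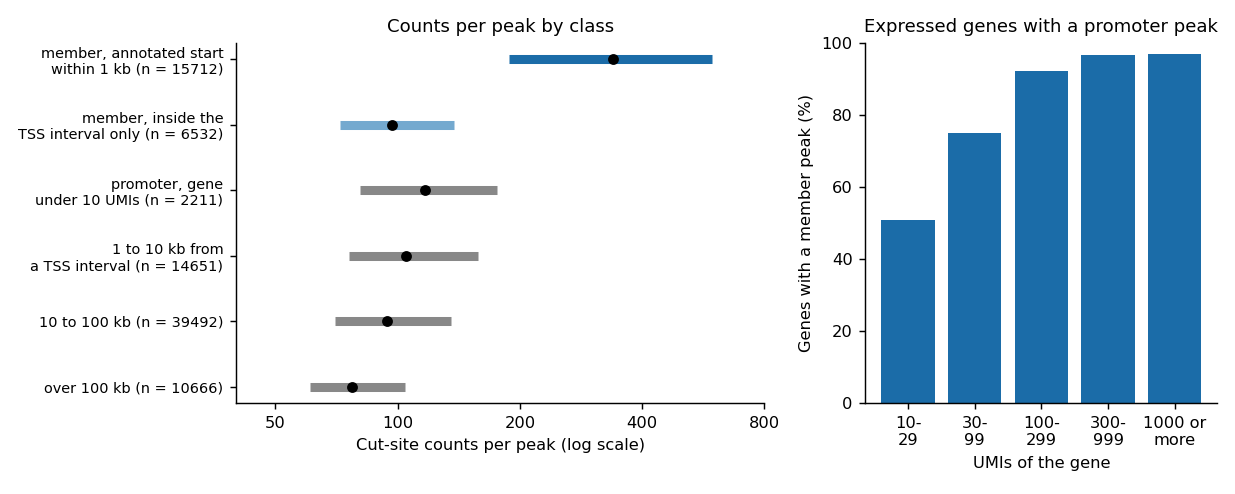
Left, cut-site counts per peak (log axis) by class, with bars from the lower to the upper quartile and points at the median; start-site peaks had a median of 339 counts, and every other class lay between 77 and 117. Right, the share of autosomal genes with at least 1 promoter peak, start-site or interval-only, by the number of UMIs of the gene, from 50.7% at 10 to 29 UMIs to 96.9% at 1000 or more.

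Counts at start-site peaks went up with UMIs to 999 and were lower in the top class. A peak was classed by the gene with most UMIs among those whose TSS interval lay within 1 kb. That gene need not be the one that starts there. The median was 158 counts for genes with 10 to 29 UMIs, 249 for 30 to 99, 378 for 100 to 299, 417 for 300 to 999 and 344 for 1000 or more. Interval-only peaks stayed between 95 and 102 counts over the same classes. At the limit of the choice itself there was no step: the 349 peaks whose genes had 10 to 12 UMIs had a median of 123 counts and the 395 peaks just outside, at 7 to 9 UMIs, a median of 128.

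The same order was seen in the raw fragments. Around genes with a single annotated start, a peak and no other gene within 2000 bases, cut sites of short fragments, with less DNA than wraps 1 nucleosome, were 15.97 times as dense within 100 bases of the start as in the flanks for 2727 genes of 100 or more UMIs. They were 9.33 times as dense for 1537 genes of 10 to 99 UMIs and 2.93 times for 1381 genes under 10 UMIs. All 3 summits lay just upstream of the start, at -52, -64 and -53 bases. Having a peak was a condition for entering this profile, so these are enrichments among genes with a peak.

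**Figure D2:**
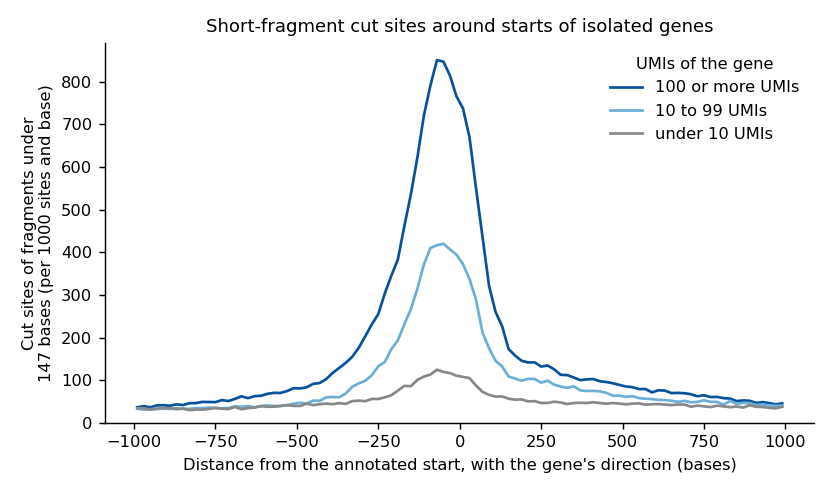
Cut sites of fragments shorter than the DNA of 1 nucleosome around the annotated start, per 1000 sites and base, in bins of 20 bases against the distance from the start in bases; negative values are upstream. The density within 100 bases over that of the flanks was 15.97, 9.33 and 2.93 for genes with 100 or more, 10 to 99 and under 10 UMIs.

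Not every expressed gene had a promoter peak. Of 17468 autosomal genes with 10 or more UMIs, 14297 had at least 1 peak and 3171 had none, and the share with a peak grew from 50.7% at 10 to 29 UMIs to 92.1% at 100 to 299 and 96.9% at 1000 or more. Start-site and interval-only peaks both count here, so long intervals can add to these shares. Neb and Pecam1, for example, had 3 peaks each and none near a start. The 55 genes of 1000 or more UMIs without a peak included some of the most abundant RNAs of the section. The adult globin genes Hba-a1, Hba-a2 and Hbb-bs, whose RNA fills red blood cells, had 22381, 18069 and 13822 UMIs, and their nearest peaks were 3.24, 3.35 and 12.0 kb from their TSS intervals. Acta1 had 6399 UMIs, Tnnt3 and Tnni2, which encode fast troponins T and I, 4835 and 4566, and Ckm, the muscle creatine kinase, 4057. Neuronal genes were among them too, with Gria1, an AMPA receptor subunit, at 4530 UMIs and 9.84 kb from its nearest peak. Of the marker lists, the erythroid list had no promoter peak for any of its 4 autosomal genes over the UMI limit, and neither had the microglial list for its 5, whereas all 15 autosomal neuronal and all 10 radial glial genes had one.

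In the other direction, a few genes held many peaks. One peak each was found for 10997 genes, while 269 genes had 10 or more. Fgfr2, a fibroblast growth factor receptor, had 176 peaks, but its interval in the feature table spanned 2857 kb and only 28 of the peaks had an expressed gene's annotated start within 1 kb. Auts2 had 78 peaks, 5 of them near a start, and Pde4d 54, with 9 near a start. In all, 10830 of the 22244 peaks belonged only to genes whose interval was longer than 1 kb, and 1900 peaks had more than 1 gene starting within 1 kb.

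Counts were unevenly spread among the peaks. The top 222 peaks (1%) held 9.27% of the counts, the top 2224 (10%) 37.0%, and the lower 11122 (50%) 16.2%. The 7 peaks over 10000 counts held 3.07%. They lay at Gm42418 (60033 and 58223 counts), Gm10800 (45711), Gm26917 (33371), Gm10801 (17295) and in introns of Chl1 (24298) and Filip1l (15060). Gm42418 and Gm26917 overlap ribosomal RNA sequence, and reads at such repeats can come from near-identical copies elsewhere, so these values are uncertain. The other peaks over 10000 counts were not checked for this, so their values are uncertain too. The next peaks were at Sp1, a widely expressed GC-box factor (4704 counts), Rab40c, a GTPase of ubiquitin ligases (4516), and 4932412D23Rik (4170).

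Start-site peaks stood apart from the others in base composition. In the 300 bases around the peak centre the median GC content was 63.3% in start-site peaks (quartiles 56.3 and 69.3%) against 49.7% in interval-only peaks, 52.7% in promoters of genes under 10 UMIs and 50% in peaks 10 to 100 kb away. The ratio of observed to expected CG pairs was 0.753 in start-site peaks, 0.230 in interval-only peaks, 0.310 in low-UMI promoters and 0.228 in peaks 10 to 100 kb away. The GC box was found in 59.7% of start-site peaks and in 17.8% of all 91143 peaks read. The ETS motif was found in 14.5% against 4.17%, the CRE in 2.79% against 0.761% and the YY1 motif in 2.62% against 0.631%. The CCAAT box was found at similar shares in both, at 34.9% and 32.0%. The TATA box was less frequent in start-site peaks, at 4.49% against 9.56%, as were the E-box, at 18.3% against 23.6%, and the MEF2 motif, at 0.286% against 0.575%. GC-rich windows hold GC-rich strings more often by composition alone, and a match is a string of letters, not a bound site.

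Each barcode joins 2 segments of 8 bases, and spots that share a segment form one group, with 50 groups by the first segment and 48 by the second. Variation is given as the squared coefficient of variation over these groups beyond counting error, so 0 means no more spread than counting gives. Over the second segments, start-site peaks of 100 or more counts had a median of 0.0263 (quartiles -0.00834 and 0.0917, n = 14586). Interval-only peaks had a median of 0.0818, low-UMI promoters 0.0690, peaks 10 to 100 kb away 0.0922 and peaks over 100 kb away 0.122. Values above 0.25 were found for 6.93% of start-site peaks and for 23.9% of peaks 10 to 100 kb away. These classes had medians of 365 and 141 counts. Counting error spreads the value more at fewer counts, so the shares above 0.25 are not at like depth. Start-site peaks were also the lowest among peaks of like counts: between 200 and 399 counts the medians were 0.0444 for start-site peaks, 0.0938 for interval-only peaks and 0.103 for peaks 10 to 100 kb away. Over the first segments no class had a median above 0.000797, and start-site peaks had -0.00619. There, 0.912% of start-site peaks and 5.75% of peaks 10 to 100 kb away were above 0.25. The depths differ in the same way, so these shares do not show that single peaks varied over the first segments.

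**Figure D3:**
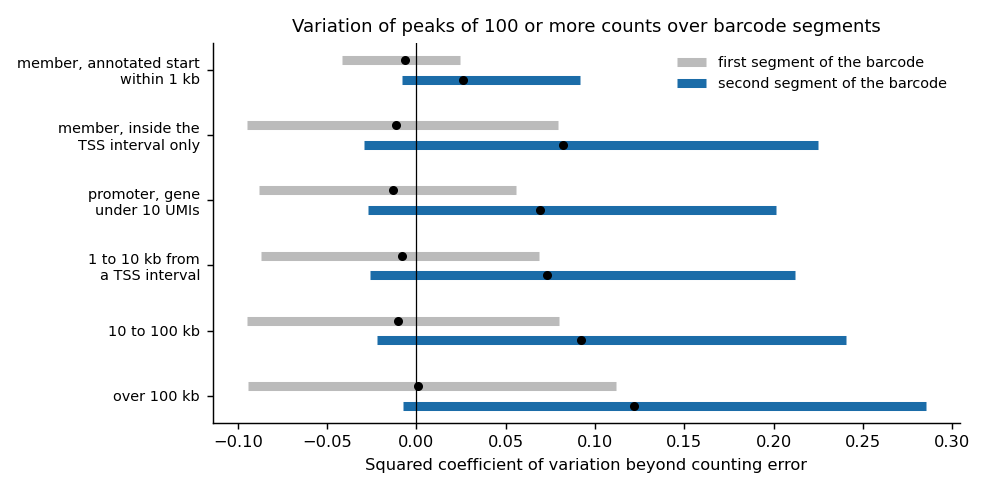
Squared coefficient of variation beyond counting error for peaks of 100 or more counts, over spots grouped by the first (grey) and the second (blue) barcode segment; bars run from the lower to the upper quartile and points are medians. Over the second segments the median rose from 0.0263 in start-site peaks to 0.122 in peaks over 100 kb from a TSS interval, and over the first it stayed near 0.

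Among peaks of 200 or more counts, those that varied most over the second segments were near Col1a2, a chain of type I collagen, with 1.23, Pde10a, a striatal phosphodiesterase, with 1.01, Pacsin1, a neuronal endocytosis protein, with 0.974, Dnm3os, a non-coding RNA of mesenchyme, with 0.909, and Runx3, a Runt factor of skeleton and sensory neurons, with 0.877. Some second segments held as few as 2 spots, where 1 fragment gives a high rate. Without segments under 10 spots the value of Col1a2 was 0.406 and that of Pacsin1 0.145, while Pde10a, Runx3, Twist1 (0.857), Dnm3os, Six2 (0.832) and En2, a midbrain and hindbrain factor (0.773), stayed high. Over the first segments the highest values were at intronic peaks of Ckap5, Elk3 and Fgfr2 and at peaks of Gm37359 and 2310014F06Rik. Whether these exceed what counting error gives among so many peaks was not tested.

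Muscle-rich spots were the 199 spots (10%) with the highest share of Acta1 and Ttn among their UMIs, and they were compared with the other 1794. Acta1 reached 2276 CPM in them against 563 elsewhere, and Ttn 1757 against 568. They were deeper in accessibility, with a median of 10850 against 7399 peak counts, so rates were taken as CPM of the peak counts of each set of spots. A peak was called where the ratio of rates was 1.5-fold or more in either direction and its 95% interval lay on the same side of 1. Of 17734 promoter peaks with 100 or more counts, 1623 (9.15%) were called higher, when 10.5% of all 48787 peaks of that depth were, and 1501 (8.46%) lower, when 9.35% were. These shares are near the background, and the order turned for higher calls per spot and for lower calls within second segments, both given below. Start-site peaks, although deeper, were called higher in 8.75% and lower in 8.02%. At like counts, the shares called in either direction are given for start-site peaks, interval-only peaks and peaks 10 to 100 kb away. At 100 to 199 counts they were 15.3, 17.5 and 18.0%, and at 200 to 399 counts 23.3, 36.3 and 34.0%. Among peaks of 400 to 799 counts they were 16.7%, 45.6% (n = 79) and 38.7% (n = 439). The lowest band held 2503 of the interval-only peaks and 14193 of those 10 to 100 kb away.

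Muscle-rich spots were not spread evenly over the barcode segments. Of the 199, 149 (74.9%) shared 6 of the 48 second segments, while 48 of the 50 first segments held at least 1. When muscle-rich and other spots were compared only within the same second segment, 316 promoter peaks were higher (2.36% of all peaks were) and 347 lower (1.64% were). Of the earlier calls only 141 and 143 remained, and 572 of the 3124 lay on the other side of 1. Most of the calls therefore could not be told apart from a difference between those 6 segments and the others. Without the scaling to peak counts, per spot, 7411 promoter peaks were higher (34.3% of all peaks were) and 227 lower (1.54% were), so that 97.0% of calls were upward against 52.0% on the CPM scale, with a median ratio of 1.52.

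The marker lists differed in direction. Of 12 tested peaks of fibroblast and bone genes, 9 were higher and 0 lower, when 10.5% of all peaks were higher, with a median ratio of 2.06, when the median over all peaks tested was 0.971. Per spot all 12 were higher, as were 34.3% of all peaks. Lum, which encodes the collagen-binding proteoglycan lumican, was at 22.7 CPM in muscle-rich spots and 7.08 in the others, a ratio of 3.20 (95% interval 1.94 to 5.19). Twist1 had 35.5 against 15.0 (ratio 2.36, 1.62 to 3.40). Col1a2 and Col1a1, the chains of type I collagen, had ratios of 2.08 (1.29 to 3.26) and 1.81 (1.19 to 2.68). A second peak of Col1a1 was higher too, at 2.22 (1.33 to 3.58). Runx2, the master factor of bone formation, had 1.37 (1.001 to 1.85) at its most covered peak, which was not called, while 2 smaller peaks of the gene were higher, at 2.58 (1.43 to 4.48) and 2.41 (1.28 to 4.33). Within second segments none of the 12 was called, and their median ratio was 1.09. There the ratios of Twist1 (0.732, 0.495 to 1.08), Col1a2 (0.893, 0.541 to 1.47) and Pdgfrb, a growth factor receptor of mural cells and fibroblasts (0.944, 0.609 to 1.46, from 2.04), lay on the other side of 1. So did that of the second peak of Col1a1 (0.732, 0.437 to 1.23), while the most covered peak of Col1a1 was at 1.22 (0.772 to 1.92).

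The muscle list gave few peaks to compare. Of 25 genes, 23 passed the UMI limit, 13 had a promoter peak and 11 peaks were deep enough to compare, of which 4 were higher and 1 lower (10.5% and 9.35% of all peaks were). Per spot 8 were higher and 0 lower (34.3% and 1.54% of all peaks were). Tnnc2 had 14.4 CPM in muscle-rich spots and 4.56 in the others (ratio 3.17, 1.66 to 5.83), Myh8, the perinatal myosin heavy chain, 18.1 against 5.89 (3.08, 1.75 to 5.28), Myog 16.5 against 5.54 (2.98, 1.65 to 5.22) and Ryr1, the calcium release channel of the sarcoplasmic reticulum, 16.9 against 6.52 (2.59, 1.46 to 4.45). Tnnc2 and Myog were also called within second segments, at 3.003 (1.08 to 8.32) and 3.22 (1.32 to 7.87), and were the only listed genes reported here whose most covered peak was called higher there. Myh8 and Ryr1 lost the call, at 1.66 (0.828 to 3.33) and 1.89 (0.945 to 3.77). Mylpf, a myosin light chain of fast fibres, had the largest count of the list, 1943, but a ratio of 1.10 (0.915 to 1.303), although its RNA ratio was 3.12. Tnnc1, Myl4 and Actn3 had ratios of 0.793, 1.07 and 1.16 and were not called either. They held 362, 506 and 655 counts, against 100 to 134 at the 4 peaks called higher. Whether another gene also starts near the peaks of Mylpf, Tnnc1, Myl4 and Actn3 was not checked, so these peaks may not be muscle promoters alone. An intronic peak of Neb, the thin-filament ruler nebulin, was lower at 0.245 on 4 counts in muscle-rich spots (0.0289 to 0.935). The call was lost within second segments, where the ratio was still 0.227 but its interval reached past 1 (0.0461 to 1.12). It was also lost under each of the 4 other choices of muscle-rich spots tried. The ratio was 0.254 in a smaller set of the richest spots, 0.419 by Acta1 alone and 0.534 in a larger set. The lost call therefore does not show that the difference went away. The 2 genes that defined the spots could not be compared at their promoters: Acta1 had no peak, and the deepest of 3 peaks of Ttn held 61 counts.

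Neuronal promoters went the other way. Of 61 tested peaks of neuronal genes 25 were lower and 0 higher, when 9.35% of all peaks were lower, with a median ratio of 0.528, and of the 32 start-site peaks among them 17 were lower, with a median of 0.475 against 0.997 over all start-site peaks. The peaks are not separate genes: Myt1l, a neuronal zinc-finger factor, alone gave 34 of the 102 neuronal peaks and 8 of the lower calls. Tubb3 was at 12.4 CPM in muscle-rich spots against 51.6 in the others (ratio 0.240, 0.133 to 0.401). Snap25 had 4.95 against 20.5 (0.241, 0.0870 to 0.537), Celf4, a splicing factor, 7.01 against 21.7 (0.324, 0.141 to 0.641) and Elavl3 5.36 against 16.3 (0.330, 0.124 to 0.719). Stmn2 and Syt1, a microtubule regulator and the calcium sensor of vesicle release, had ratios of 0.452 (0.254 to 0.752) and 0.458 (0.295 to 0.683). Map2, a dendritic microtubule protein, had 0.832 (0.548 to 1.22) at its most covered peak, which was not called, while another of its 7 peaks was lower at 0.191 (0.0386 to 0.575). Within second segments 1 of the 61 was lower (1.64% of all peaks were), and the median of the start-site peaks was 1.04. There Tubb3 was at 0.580 (0.313 to 1.07), Snap25 at 0.492 (0.215 to 1.13) and Celf4 at 0.644 (0.256 to 1.62), still below 1 but not called. Stmn2 was at 1.32 (0.735 to 2.38), Syt1 at 1.05 (0.592 to 1.88) and Elavl3 at 1.02 (0.355 to 2.90), on the other side of 1. Per spot, without the scaling to peak counts, 8 of the 61 were lower and 3 higher (1.54% and 34.3% of all peaks were), and of the 32 start-site peaks 6 were lower and 1 higher.

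Glial and other lists had few peaks tested, and their calls are to be read against the 10.5% of all peaks called higher and the 9.35% called lower. Of 15 radial glial peaks, Hes1 and Notch1, a target and a receptor of Notch signalling, and Vim, an intermediate filament shared with mesenchyme, were among the 4 higher, at 2.37 (1.79 to 3.12), 1.83 (1.31 to 2.52) and 2.04 (1.58 to 2.62). Hes5, another Notch target, at 0.488 (0.251 to 0.870), and Fabp7, a lipid-binding protein of radial glia, at 0.416 (0.169 to 0.868), were the 2 lower. Gad1, the GABA-synthesising enzyme, was the 1 of 7 interneuron peaks called, at 0.418 (0.149 to 0.947). Of 6 excitatory neuron peaks 1 was higher and 1 lower, the latter at Neurod1, a neurogenic factor, with 0.412 (0.161 to 0.880). Cldn3 and Krt8, a tight-junction protein and a keratin of simple epithelia, were higher at 1.89 (1.28 to 2.73) and 2.14 (1.17 to 3.78), the 2 of 4 ciliated epithelial peaks called. None of 4 endothelial peaks was called. Per spot, none of these peaks was lower, and 5 of the 15 radial glial, 1 of the 7 interneuron, 1 of the 6 excitatory neuron, 3 of the 4 ciliated epithelial and 1 of the 4 endothelial peaks were higher (34.3% of all peaks were). The fourth radial glial peak called was a second peak of Hes1, at 1.82 (1.11 to 2.90). None of the peaks named in this paragraph was called within second segments, where Notch1 (0.963), Cldn3 (0.924), Krt8 (0.962) and the second peak of Hes1 (0.712) lay below 1. The other named peaks kept their side of 1. Gad1 was at 0.514 (0.169 to 1.57), Fabp7 at 0.552 (0.216 to 1.41), Neurod1 at 0.658 and Hes5 at 0.935. The first peak of Hes1 was at 1.33 and Vim at 1.21.

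Most housekeeping and CTCF-related promoters were not called. Of 20 housekeeping peaks 1 was higher and 0 lower (10.5% and 9.35% of all peaks were), with a median ratio of 1.04. The 1 was a second peak of Gapdh, a glycolytic enzyme, at 2.17 (1.55 to 3.01), and its ratio was 0.989 within second segments, while the most covered peak of Gapdh had 1.05. Actb had 57.7 against 56.2 CPM (ratio 1.03, 0.785 to 1.33) and Vcp, an ATPase of protein quality control, 96.5 against 100.2 (0.963, 0.785 to 1.17). The promoter of Ctcf (chr8:105636150-105637036) held 866 counts, 58.6 CPM in muscle-rich spots and 50.8 in the others, a ratio of 1.15 (0.881 to 1.49). None of the 8 tested peaks of CTCF and cohesin genes was called, with ratios from 0.920 at Pds5b to 1.21 at Smc3. Their intervals reached down to 0.655 at Pds5b and up to 1.58 at Nipbl, so differences of that size remain possible. Per spot, 6 of these 8 peaks and 12 of the 20 housekeeping peaks were called higher and none lower, when 34.3% and 1.54% of all peaks were.

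**Figure D4:**
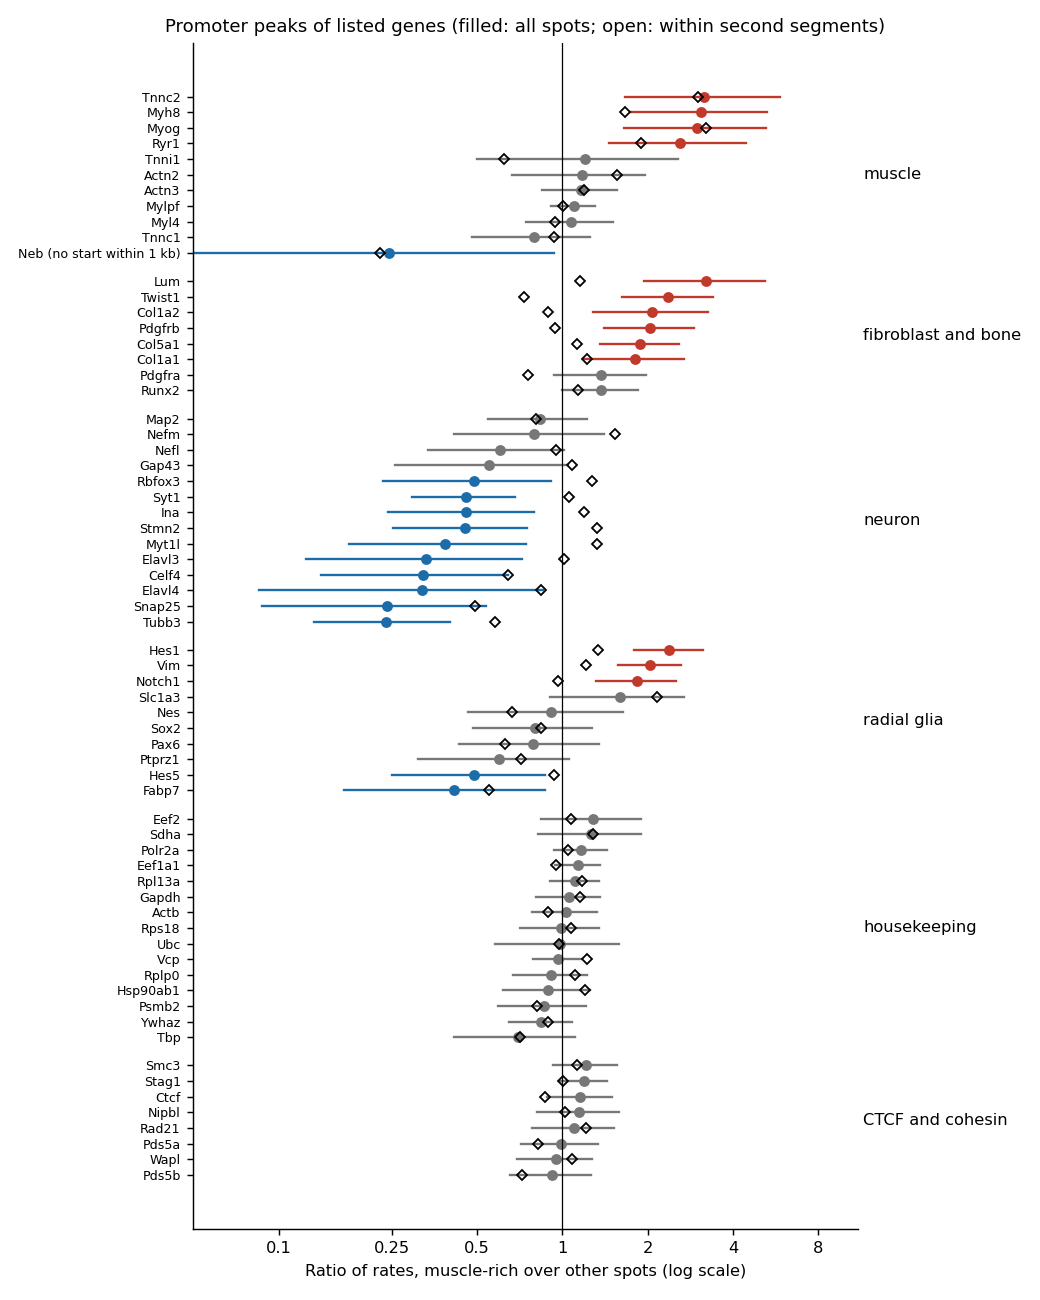
Ratio of accessibility rates in muscle-rich over other spots (log axis) for the most covered promoter peak of each listed gene reported here from 6 lists, with 100 or more counts; filled points with 95% counting intervals compare all spots (red, called higher; blue, called lower; grey, not called) and open diamonds are the ratios within second barcode segments; the interval of Neb runs past the left edge. Fibroblast and bone genes lay above 1 and most neuronal genes below it, but within second segments both lists gathered around 1, with some on the other side, such as Twist1 (0.732) and Stmn2 (1.32), and some still below, such as Snap25 (0.492), while Tnnc2 and Myog stayed near 3.

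The same promoters, chosen for their values in these spots, are given by second segment as a description; the 6 segments with the most muscle-rich spots hold 149 of the 199, so these levels are no separate evidence. In the 6 second segments with the most muscle-rich spots Six2 ranged from 27.8 to 57.6 CPM, with a median of 35.8, against a median of 5.69 in the other 40 segments of 10 or more spots, 1 of which was above all 6. Mgp had a median of 38.5 against 5.63 and Dnm3os 48.4 against 5.75. Elavl3 had a median of 3.18, at most 6.24, against 17.5, and 35 of the 40 other segments lay above all 6. Snap25 had 5.34 against 24.3, with 26 of 40 above all 6. Actb had 61.6 against 50.2, with 11 of 40 above and 23 below all 6, so the ranges overlapped on both sides.

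**Figure D5:**
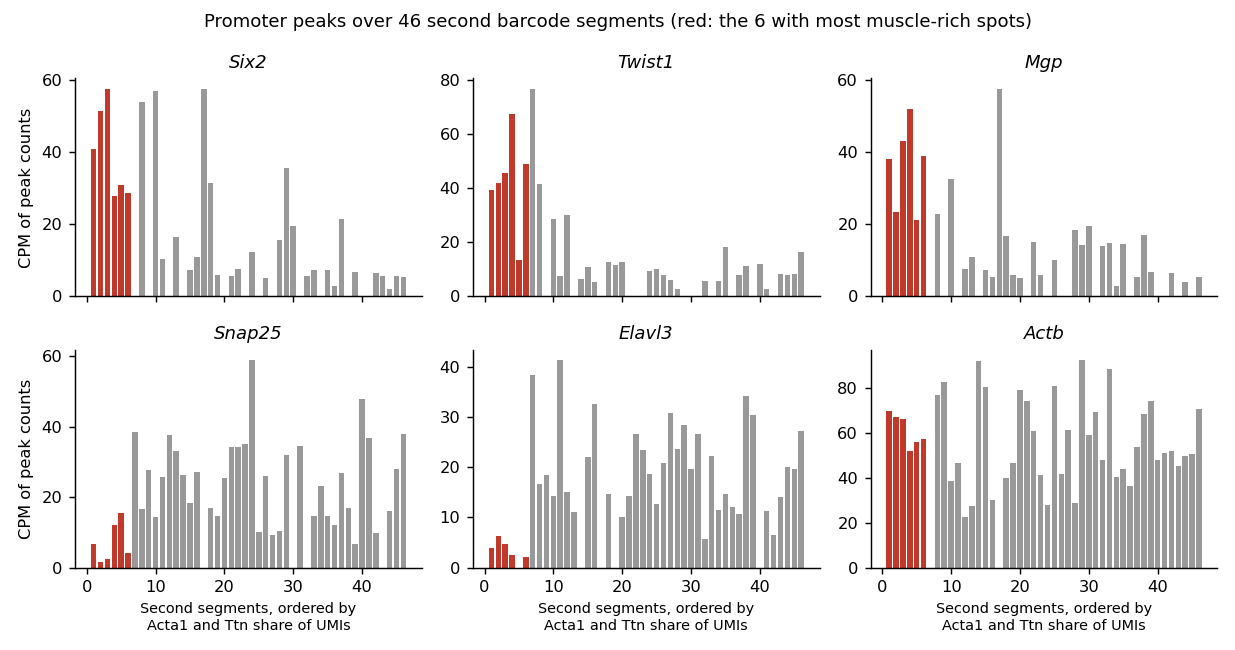
Accessibility of 6 promoter peaks, in CPM of peak counts, over the 46 second barcode segments of 10 or more spots, ordered from the highest to the lowest share of Acta1 and Ttn in their UMIs; red bars are the 6 segments with the most muscle-rich spots. Six2, Twist1 and Mgp were high in the red bars, Snap25 and Elavl3 low, and Actb in between.

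Among all promoter peaks of 200 or more counts, the highest ratios were at Trappc3, a subunit of a vesicle tethering complex (43.3 against 10.4 CPM, ratio 4.17, 2.87 to 6.02), Six2 (3.61, 2.56 to 5.06), an intronic peak of the calcium pump gene Atp2b4 (3.41, 2.31 to 4.97), Ehbp1l1 (3.34), Arap1 (3.31), an intronic peak of the protease gene Capn5 (3.26), Cryab (3.20), Igf2, the fetal growth factor (3.19), Ost4 (3.17) and Mgp (3.10). The lowest were at Cacnb4 (2 against 219 counts, ratio 0.0537, 0.00135 to 0.306), Soga3 (0.0855), an intronic peak of 4933427D06Rik (0.0891), Ptpro, a receptor phosphatase (0.0905), Erc2 (0.105), Mir99ahg (0.134), Clasp2, a microtubule-binding protein (0.140), 5330417C22Rik (0.142), Specc1 (0.146) and Mir124-2hg, the host gene of a neuronal microRNA (0.149). The peaks of Trappc3, Ehbp1l1, Ost4 and Ptpro lay 979, 916, 799 and 924 bases from the nearest annotated start of an expressed gene. The low ratios rest on 2 to 17 counts in muscle-rich spots. Their size depended on the choice of spots: the median of the 10 lowest was 0.120 here, 0.116 with the top 5% of spots, 0.364 with the top 20%, 0.225 by Acta1 alone and 0.305 by Ttn alone, while that of the 10 highest went from 3.28 to between 2.76 and 3.15. Within second segments Trappc3 (1.76, 1.13 to 2.76), Cryab (1.69, 1.003 to 2.84), Erc2 (0.161, 0.0273 to 0.953) and Specc1 (0.191, 0.0541 to 0.677) were still called and the other 16 were not, with no ratio on the other side of 1.

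RNA from the same spots moved with the promoters in part. Peaks were used if a gene whose TSS interval lay within 1 kb had 50 or more UMIs. The RNA set beside a peak was that of the gene starting nearby with most UMIs. Of the 1051 such start-site peaks called higher, 289 had an RNA ratio with its interval above 1 and 41 below, and the median RNA ratio was 1.20. Of the 1051 called lower, 16 were above and 355 below, with a median of 0.832. Of the 10664 not called, 832 were above and 1149 below, with a median of 0.968. Over 7500 start-site peaks with 200 or more counts and UMIs, Spearman's rho between the 2 log2 ratios was 0.283 and Pearson's r 0.319, across peaks that share the same spots and are not independent. At single genes the 2 could part. Cryab had an RNA ratio of 3.15 (2.63 to 3.76). Trappc3 had 0.861 (0.639 to 1.14), but its peak lay 979 bases from the nearest annotated start of an expressed gene. Mylpf, with an RNA ratio of 3.12 (2.97 to 3.28), had a peak ratio of 1.10. A peak can be shared, and 1900 peaks had more than 1 gene starting within 1 kb. Whether the peaks of Trappc3 and Mylpf were among them was not checked, so they may belong to another gene. Six2, Twist1 and Lum had 18, 22 and 39 UMIs, too few to set their RNA beside the promoter.

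The sequence of start-site peaks is given by their call between the spots. Median GC content was 65.3% in the higher, 61.3% in the lower and 64.3% in those not called. The ratio of observed to expected CG pairs was 0.663 in the 1277 higher, 0.664 in the 1170 lower and 0.791 in the 12139 not called. The ETS motif was found in 6.58% of the higher, 12.5% of the lower and 16.6% of those not called, and the YY1 motif in 0.940%, 1.37% and 3.14%. The E-box was found in 22.1%, 19.7% and 17.3%. The GC box was found in 67.7%, 50.7% and 63.9%, the CCAAT box in 28.7%, 38.7% and 35.5% and the CRE in 1.80%, 3.33% and 3.04%, with the higher and lower sets on opposite sides of those not called. The MEF2 motif was found in 7 of the higher, 6 of the lower and 30 of those not called. These shares are descriptions of chosen peaks and were not tested.

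The share of peak counts that fell in promoter peaks was almost the same in both sets of spots, at 49.8% (49.7 to 49.9%) in muscle-rich and 49.5% (49.5 to 49.5%) in the others. Muscle-rich spots were deeper, and within each of 4 equal groups of spots by depth their share was the lower. From the shallowest group it was 47.8% against 48.6%, 48.6% against 49.0%, 47.8% against 49.3% and 50.2% against 50.3%. The intervals overlapped in group 2 (48.21 to 48.98% against 48.89 to 49.04%) and group 4 (50.12 to 50.32% against 50.27 to 50.39%). Single spots ranged from 39.9 to 57.7%, with a median of 49.1%. By second segment the share ran from 46.7 to 51.2% and by first segment from 48.1 to 51.5%. Short fragments made up 51.01% of those in start-site peaks, 49.6% of those in peaks 10 to 100 kb away and 51.3% of those over 100 kb away. Their share was higher in muscle-rich spots in start-site peaks (54.5% against 50.4%) and in all peaks (55.0% against 49.7%).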

How the data were processed

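One RNA and one accessibility library of the same spots were used. Per the file headers, the authors made the matrix with cellranger-arc 2.0.1 on an mm10 reference, and the submitters' notes name Seurat 4.0. The deposited matrix holds raw counts, UMIs per gene and transposase cut sites per peak, and the deposited fragment file was used for fragment lengths. How the authors chose the 1993 matrix barcodes out of 2500 and what called the peaks with which settings beyond that pipeline was not given in the sources used here. Depth was 8726497 UMIs and 16684727 peak counts.

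Members were the peaks within 1000 bases of a TSS interval of a gene with 10 or more UMIs. Members, lists and comparisons were chosen with earlier results of these data known. Rates were CPM, counts scaled to a total of 1000000. Since 92.8% of cut sites came in pairs from 1 fragment, intervals (95%) and variation used 1 count per 2 cut sites. This choice was made after seeing the data. Printed intervals were exact binomial, except within second segments, where they were symmetric around the ratio on the log scale. The latter are approximate at few counts, as at Erc2 with 4 counts in muscle-rich spots. Named peaks were the 10 with most counts, the 10 highest and 10 lowest ratios among calls of 200 or more counts, the 5 most variable over each barcode segment, and the most covered peak of each listed gene, some of which are not reported here. The scripts ran under python 3.11.15 with numpy 2.4.6, scipy 1.17.1 and pandas 2.3.3 and were tested on simulated data. Starts and exons came from GENCODE M21 (32235 of 32285 gene IDs matched) and sequence from RefSeq GRCm38.p6. Peaks over 10000 counts were left out of the start profile. Alternatives covered the UMI limit, window, spot sets, scaling, minimum counts, fold, strata and fragments.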

Additional observations from a re-analysis of the deposited data

Results flagged for a closer look

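The fragment file holds 507 barcodes that are not in the count matrix and that enter no comparison above, and they carried signal at promoter peaks. Of their 779586 fragments that overlapped a peak, 43.5% (95% interval 43.4 to 43.6%, counting error only) overlapped a promoter peak of an expressed gene, against 49.3% for the matrix barcodes. Of all 5833396 fragments of these barcodes 5.82% lay in such peaks, against 9.39%. Start-site peaks took 37.9% of their peak fragments against 44.4%, and peaks 10 to 100 kb away 31.5% against 28.5%. The library has no control barcodes to set these values against.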

How the results depend on the processing

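The number and share of promoter peaks followed the definition. With UMI limits of 1, 5, 20 and 100 the share of peak counts was 51.2, 50.3, 48.5 and 42.0%, with windows of 0, 500 bases and 2 kb it was 46.02, 48.1 and 51.1%, on fragments 49.3% and without peaks over 10000 counts 49.1%. Leaving out genes with an interval over 1 kb left 11414 peaks and 35.1% of counts. With the top 5% of spots, the top 20%, Acta1 alone or Ttn alone, the share was 49.3, 49.9, 49.5 and 49.5% in muscle-rich spots and 49.6, 49.4, 49.5 and 49.6% in the others, so its direction depended on the choice of spots. Of 1623 higher and 1501 lower calls, per-spot scaling gave 7411 and 227, a 2-fold limit 671 higher, the comparison within second segments 316 and 347, and intervals on all cut sites 2426 lower; the cause was not tested. In all other settings the numbers of calls stayed within 1.5 times, but the peaks called changed. The top 5% of spots kept 838 of the higher and 701 of the lower calls, and 25 lay on the other side of 1. Ttn alone kept 942 and 786, with 8 on the other side. For peaks 10 to 100 kb away the variation over the second segments was 0.0820 with a minimum of 50 counts, 0.0741 without muscle-rich spots, 0.113 on fragments and 0.103 over segments of 10 or more spots, and over the first segments -0.0252 with a minimum of 50 counts, 0.00444 with 200 and 0.0132 on fragments. Start-site values moved by less than 0.01, though they were small to begin with. On fragments they were 0.0354 over the second segments, from 0.0263, and 0.00222 over the first, from -0.00619. The strata, fragment, all-cut-site and segment settings were chosen after seeing the data. Of the 20 highest and lowest ratios none crossed 1, but 16 lost their call within second segments and Specc1 also with the top 20% of spots. Of the 30 reported most covered peaks of listed genes that were called, within second segments only 2 kept the call, 16 lost it and 12 crossed 1: Stmn2 (1.32), Syt1 (1.05), Rbfox3 (1.27), Elavl3 (1.02), Ina (1.19), Myt1l (1.32), Notch1 (0.963), Col1a2 (0.893), Pdgfrb (0.944), Twist1 (0.732), Cldn3 (0.924) and Krt8 (0.962). With the top 5% of spots 15 of the 30 lost the call, and per spot 12 did. Of 53 reported listed peaks not called before, 22 were called per spot on the same side of 1 as before, and Rps18 (1.51) and Pds5a (1.52) on the other. Depth limits single peaks: Tnni1, at 100 counts and a ratio of 1.20, had an interval from 0.502 to 2.55. No paired analysis was possible because each assay has 1 library and no replicate.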
